A study of Mus musculus with 8 samples.

Results

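The genes described here handle vitamin A, make or clear retinoic acid, receive its signal, or carry lymphocytes to the gut. They are Aldh1a1, Aldh1a2, Rbp2, Rara, Cyp26b1, Dhrs3, Lrat, Ccr9 and Itgb7, 9 of the 18194 genes named on the array. They were taken by name, through every probe set (a group of short probes against 1 transcript) annotated to exactly 1 of them. This gave 14 of 45101 probe sets. Of these, 12 passed the filter on dim signal, a mean level above an intensity of 11.9, and each of the 9 genes kept at least 1. The other 2 were Ccr9 probe sets. The brightest probe set past the filter stands for its gene.

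RNA came from the Peyer's patches (lymphoid tissue in the wall of the small intestine) of 8 C3H/Hej mice, 1 array per mouse. Gavage began at 6 weeks of age and ran daily for 28 days. The 2 control mice, female control 7 and male control 8, received normal saline. The 6 mice labelled OVA-induced allergic received ovalbumin (OVA), the major protein of egg white and a common experimental allergen, at 40 mg/kg per day. They were female OVA 2 and 12 and male OVA 1, 5, 8 and 13, so each sex had only 1 control, and the labels name no batch. The labels' extraction text speaks of brain cortex, yet 11 of 11 B cell markers named alone by a probe set passed the filter, against 3 of 11 neuron and glia markers, with Rbfox3, Gfap, Snap25 and Neurod6 below it. In whole tissue, fewer cells of a type and less RNA per cell cannot be told apart.

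Vitamin A reaches the gut in several forms, retinol and carotenoids among them. Enterocytes bind retinol, esterify it for export or storage, and can oxidise it by way of retinal to retinoic acid, which dendritic cells of the gut also make. Retinoic acid binds nuclear receptors on DNA and is known for giving lymphocytes primed in gut lymphoid tissue the receptors that bring them back to the gut, and for favouring IgA and regulatory T cells. Retinoid receptors bind pairs of the half-site AGGTCA and its variants, and the enterocyte factor HNF4 binds a related site that begins with CAAAG.

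The promoters of Rbp2, Aldh1a1 and Lrat are shown because these genes of retinol handling were among those whose levels were low on the same arrays. Sequences are from RefSeq, build GRCm38.p6, 300 bases from 250 before to 50 after the start, 5′ to 3′ on the gene's strand. Capitals mark, on either strand, the half-site AGGTCA (in 16.3% of all promoter windows), its variants AGTTCA (in 14%), GGGTCA (in 13.7%) and GGTTCA (in 10.4%), and the HNF4 type sites CAAAGTCCA (in 0.475%), CAAAGTTCA (in 0.39%) and CAAAGGTCA (in 0.478%). The last 2 of these contain a half-site, so they overlap it.
Rbp2, chr9:98490287-98490586, plus strand: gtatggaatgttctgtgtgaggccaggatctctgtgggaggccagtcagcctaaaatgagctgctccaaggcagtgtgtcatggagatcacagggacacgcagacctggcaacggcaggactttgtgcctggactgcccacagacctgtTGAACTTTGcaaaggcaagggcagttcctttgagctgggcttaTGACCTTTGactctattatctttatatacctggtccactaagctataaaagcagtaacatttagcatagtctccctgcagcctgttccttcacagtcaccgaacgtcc
Aldh1a1, chr19:20601718-20602017, plus strand: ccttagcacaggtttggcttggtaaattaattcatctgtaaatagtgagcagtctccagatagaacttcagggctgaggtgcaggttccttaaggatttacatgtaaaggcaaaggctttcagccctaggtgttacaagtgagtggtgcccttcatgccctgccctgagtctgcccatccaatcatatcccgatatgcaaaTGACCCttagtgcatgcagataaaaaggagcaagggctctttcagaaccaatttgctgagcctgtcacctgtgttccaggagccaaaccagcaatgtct
Lrat, chr3:82903925-82904224, minus strand: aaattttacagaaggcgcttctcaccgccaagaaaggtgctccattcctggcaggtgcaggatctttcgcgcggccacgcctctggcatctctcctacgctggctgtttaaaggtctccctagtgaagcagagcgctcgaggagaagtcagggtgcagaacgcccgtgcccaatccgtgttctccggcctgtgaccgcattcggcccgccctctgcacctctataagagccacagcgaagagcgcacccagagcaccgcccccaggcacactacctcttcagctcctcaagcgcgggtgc

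The Rbp2 window held 2 CAAAG sites, beginning 101 and 58 bases before the start. Such a site was in 1.33% of all 32851 promoter windows, and in 1 of the 15 windows of the 9 genes here. Of the 2 Aldh1a1 windows, the one shown held GGGTCA on the other strand, 49 bases before the start, and the other held no such match. A half-site was in 5 of the 15 windows of the 9 genes (those of Aldh1a1, Rbp2, Rara and Itgb7), where 43.7% of all windows held one. A direct repeat of half-sites with a spacing of 5 bases, the classical retinoic acid response element, was in 0 of the 15 windows and in 0.0974% of all windows. Repeats with a spacing of 1 or 2 bases were in 0.222% and 0.268% of all windows and also in 0 of the 15. These matches describe letters in a short window only.

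The first comparison asked which of these transcripts differed between mice given OVA and mice given saline. None of the 12 probe sets passed, and in none did all 6 OVA arrays lie above or below both controls. The differences came from 1 limma fit of treatment and sex across all probe sets, on log2(intensity + 4.88), and a gene passed at a Benjamini-Hochberg adjusted p under 0.05. In that fit 0 of 22518 tested probe sets passed (0%), while 2524 (11.2%) had an unadjusted p under 0.05. By exact permutation of treatment over the 28 splits, whose smallest p is 0.036, 1483 did so. None passed after adjustment (smallest exact permutation adjusted p = 0.537), though a smallest p so near 0.05 left little room for any to pass. All 6 OVA arrays lay above both controls in 8.36% of tested probe sets and below both in 5.01%, and in 0 of the 12 here. Of the 9 genes, 8 had a negative difference, against 45.5% of tested probe sets, and their median was -0.10 on the log2 scale beside 0.02 over all tested probe sets.

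**Figure D1:**
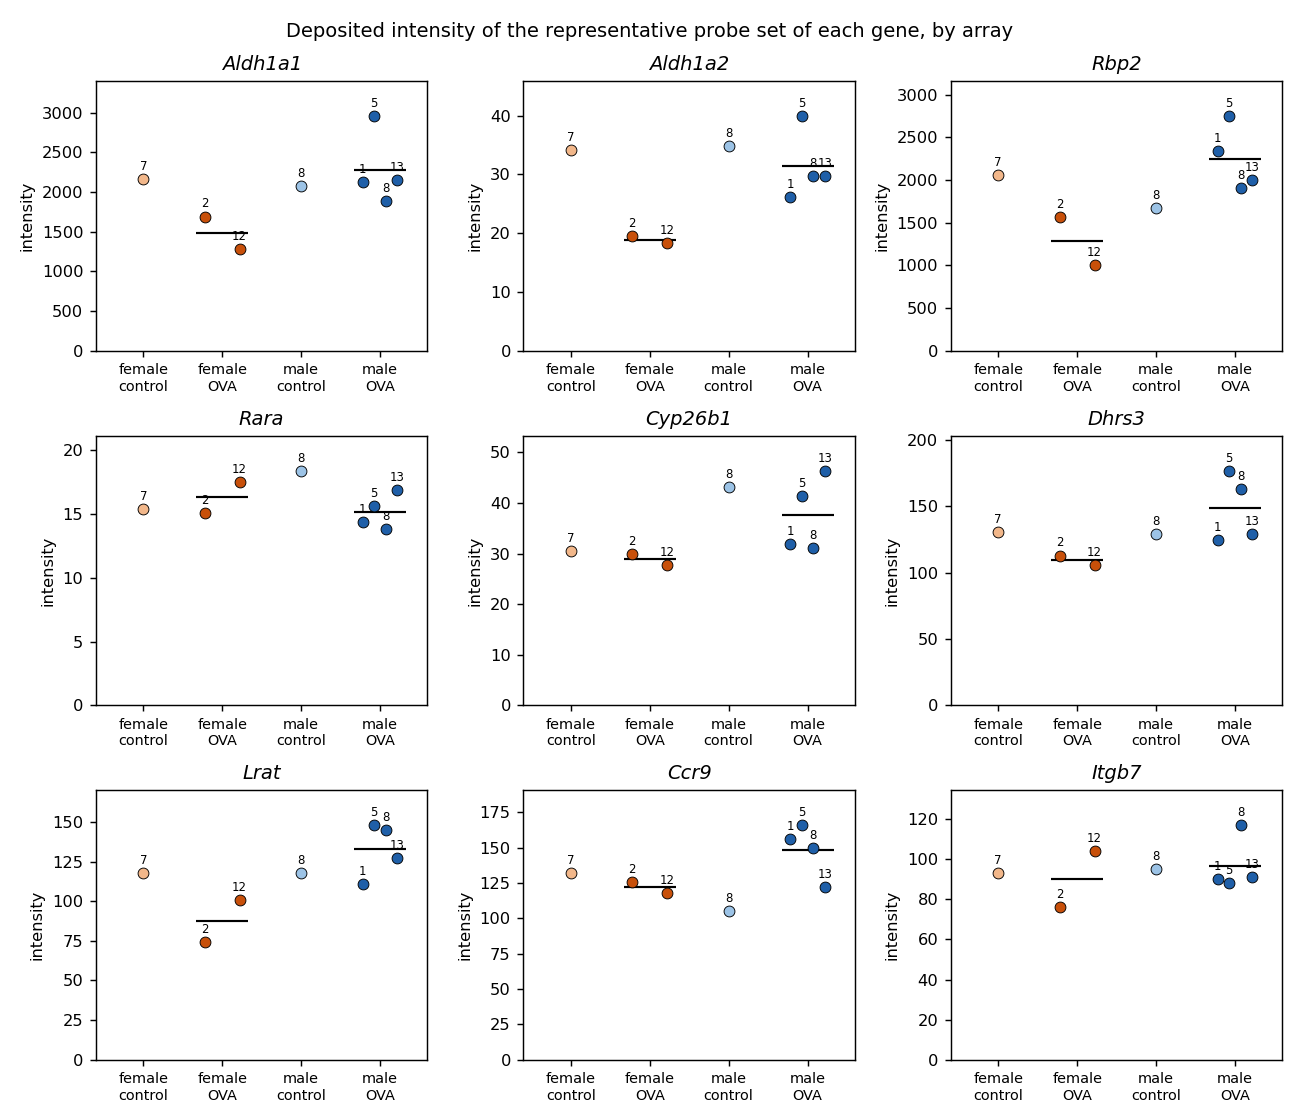
Deposited intensity (linear scale from 0) of the representative probe set of each gene, 1 point per array labelled with its replicate number, and a line at the mean of groups with more than 1 array. The 2 female OVA arrays lie below the 4 male OVA arrays for Aldh1a1, Aldh1a2, Rbp2, Cyp26b1, Dhrs3 and Lrat, while the 6 OVA arrays overlap the controls for all 9 genes.

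Uptake and storage are represented by Rbp2, the cellular retinol-binding protein of enterocytes, and Lrat, the acyltransferase that turns retinol into retinyl esters. Rbp2 (probe set 1422846_at) had an intensity of 2059 in female control 7 and 1669 in male control 8. It was 1567 and 1001 in female OVA 2 and 12, and 2343, 2748, 1911 and 1997 in male OVA 1, 5, 8 and 13. Both female OVA arrays were thus below both controls, and all male OVA arrays above the male control. OVA and control arrays overlapped, and OVA minus control was -0.10 ± 0.27 (SE) on the log2 scale (limma adjusted p = 0.899). Its highest array was 2.75 times its lowest, the widest range of the 9 representative probe sets.

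Lrat (1444487_at) read 118 in both controls, an exact tie of deposited values. Female OVA 2 and 12 stood at 74.3 and 101, and male OVA 1, 5, 8 and 13 at 111, 148, 145 and 127. The female OVA arrays were lowest of all, and 3 of 4 male OVA arrays lay above the controls. The difference was -0.11 ± 0.18 (SE) (limma adjusted p = 0.818). A second Lrat probe set (1421345_at) had the same order of groups, with 61.1 and 56.9 in the controls, 44.9 and 47.2 in female OVA and 63.9, 70.3, 69.4 and 67.6 in male OVA mice. On it the groups of OVA mice stood apart on either side of the controls.

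Dhrs3 reduces retinal back to retinol and so holds down the supply for retinoic acid. Its intensity (1448390_a_at) was 131 and 129 in female and male control, 113 and 106 in female OVA 2 and 12, and 125, 177, 163 and 129 in male OVA 1, 5, 8 and 13. Only male OVA 5 and 8 lay above both controls, and the female OVA arrays were the lowest. OVA minus control was -0.02 ± 0.16 (SE) (limma adjusted p = 0.975).

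The last step, oxidation of retinal to retinoic acid, is carried out by Aldh1a1, a form of the gut epithelium, and Aldh1a2, a form of gut dendritic cells and stroma. Aldh1a1 (1416468_at) had an intensity of 2170 in female control 7 and 2077 in male control 8. The female OVA values were 1692 and 1285, and the male OVA values 2126, 2956, 1887 and 2152 for replicates 1, 5, 8 and 13. The female OVA arrays were lowest and male OVA 5 highest, with the other male OVA arrays near the controls. The log2 difference was -0.19 ± 0.21 (SE) (limma adjusted p = 0.729).

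Aldh1a2 (1422789_at) was much nearer the filter. Its intensities were 34.1 and 34.9 in the female and male control, 19.5 and 18.3 in female OVA 2 and 12, and 26.1, 39.9, 29.7 and 29.7 in male OVA 1, 5, 8 and 13. Only male OVA 5 exceeded the controls, and the female OVA mean was 0.553 times the female control. This was the member with the smallest unadjusted p for OVA minus control (0.0414), at -0.41 ± 0.17 (SE), and it did not pass (limma adjusted p = 0.431). Exact permutation, which ignores sex, gave a difference of -0.33 with a p of 0.214. The limma difference was -0.15 without female control 7 and -0.72 without male control 8.

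Rara encodes a retinoic acid receptor, and Cyp26b1 an enzyme that degrades retinoic acid. Rara (1450180_a_at) lay just above the filter, at 15.4 and 18.4 in the female and male control, 15.1 and 17.5 in female OVA 2 and 12, and 14.4, 15.6, 13.8 and 16.9 in male OVA 1, 5, 8 and 13. The groups overlapped throughout, with the narrowest range of the 9 (1.33 times) and a difference of -0.09 ± 0.11 (SE) (limma adjusted p = 0.758). Cyp26b1 (1460011_at) read 30.6 and 43.1 in the female and male control, 29.9 and 27.8 in female OVA 2 and 12, and 31.8, 41.4, 31.1 and 46.4 in male OVA 1, 5, 8 and 13. Here the controls themselves differed, the male one being among the high arrays. The treatment difference was -0.14 ± 0.15 (SE) (limma adjusted p = 0.73).

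Among the responses, Ccr9 is the receptor for the small intestinal chemokine Ccl25, and Itgb7 is the beta chain of the integrin that binds Madcam1 on gut vessels. The brightest Ccr9 probe set (1427419_x_at) read 132 and 105 in the female and male control, 126 and 118 in female OVA 2 and 12, and 156, 166, 150 and 122 in male OVA 1, 5, 8 and 13. All male OVA arrays lay above the male control and both female OVA arrays below the female control. Ccr9 was the only gene of the 9 with a positive difference, 0.20 ± 0.16 (SE) (limma adjusted p = 0.625). Its type of probe set may hybridise to related sequences, and with the mean of all Ccr9 probe sets the difference was 0.02. Of the other Ccr9 probe sets past the filter, 1 had a difference of 0.14 and 1 of -0.03, so they disagreed in sign, and those below it stayed between 5.87 and 8.93. Neither of those past the filter shared the arrangement by sex. On 1421920_a_at both female OVA arrays (33.6 and 36.9) lay above the female control (30.2). On 1421919_a_at male OVA 13 (11.0) lay below the male control (13.9).

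Itgb7 (1418741_at) read 93 and 95.1 in the controls, 76 and 104 in female OVA 2 and 12, and 90.3, 87.9, 117 and 91.2 in male OVA 1, 5, 8 and 13. Male OVA 8 and female OVA 12 were the high arrays, 1 of each sex, and the difference was -0.02 ± 0.15 (SE) (limma adjusted p = 0.965). Since each sex had 1 control, single arrays set the sign of many of these small differences. Without female control 7 the differences of Rbp2 (0.41), Dhrs3 (0.18), Lrat (0.15), Aldh1a1 (0.11) and Itgb7 (0.01) were positive, and without male control 8 that of Rara was 0.060 and that of Ccr9 -0.11.

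Several of these genes were lower in female than in male OVA mice. For 6 of the 9 genes, Aldh1a1, Aldh1a2, Rbp2, Cyp26b1, Dhrs3 and Lrat, both female OVA arrays lay below all 4 male OVA arrays, which held for 10.2% of tested probe sets. The reverse order was found in 0 of the 9 and in 7.57% of tested probe sets. None of the 9 passed the test of that difference. This comparison was added after the values had been seen, and it used a limma fit of 4 group means over all probe sets. For Cyp26b1 the gap between the OVA groups was narrow (29.9 in female OVA 2, 31.1 in male OVA 8). Its female control (30.6) also lay below every male OVA array.

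Mean intensities in female and male OVA mice were 1284 ± 400.0 (SD, n = 2) and 2250 ± 381 (SD, n = 4) for Rbp2, a log2 difference, female minus male, of -0.83 ± 0.22 (SE). For Aldh1a1 the means were 1489 ± 287 (SD, n = 2) and 2280 ± 466 (SD, n = 4), a difference of -0.61 ± 0.20 (SE). For Aldh1a2 they were 18.9 ± 0.879 (SD, n = 2) and 31.3 ± 5.92 (SD, n = 4), a difference of -0.60 ± 0.15 (SE). These genes of retinol binding and retinal oxidation thus stood 1.75, 1.53 and 1.66 times higher on average in male OVA mice. Single females moved the Rbp2 value, which was -1.15 without female OVA 2 and -0.51 without female OVA 12. Aldh1a1 moved likewise, to -0.80 and -0.41, while Aldh1a2 stayed between -0.67 and -0.49 without any 1 array.

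Lrat was at -0.58 ± 0.17 (SE) on its brightest probe set (-0.37 without female OVA 2) and at -0.51 ± 0.09 (SE) on the second, which had the smallest adjusted p of all 12 probe sets (limma adjusted p = 0.198). Dhrs3 was at -0.41 ± 0.16 (SE), Cyp26b1 at -0.32 ± 0.17 (SE), Ccr9 at -0.26 ± 0.14 (SE), Itgb7 at -0.10 ± 0.17 (SE) and Rara at 0.08 ± 0.11 (SE). The difference was negative for 8 of the 9 genes, against 48.8% of tested probe sets, with a median of -0.41 beside 0 over all tested probe sets. Of the 22518, 13 passed in this comparison (0.0577%), and 2042 (9.07%) had an unadjusted p under 0.05, against 6 of the 12 here. Leaving out OVA arrays cannot undo this order where all arrays show it, so the count could only stay or rise. It was 6 or 7 of the 9 genes without any 1 OVA array, with 11.1% to 23.6% of tested probe sets alongside. Without female OVA 12 and male OVA 8 together it was 7, with 32.4% alongside.

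**Figure D2:**
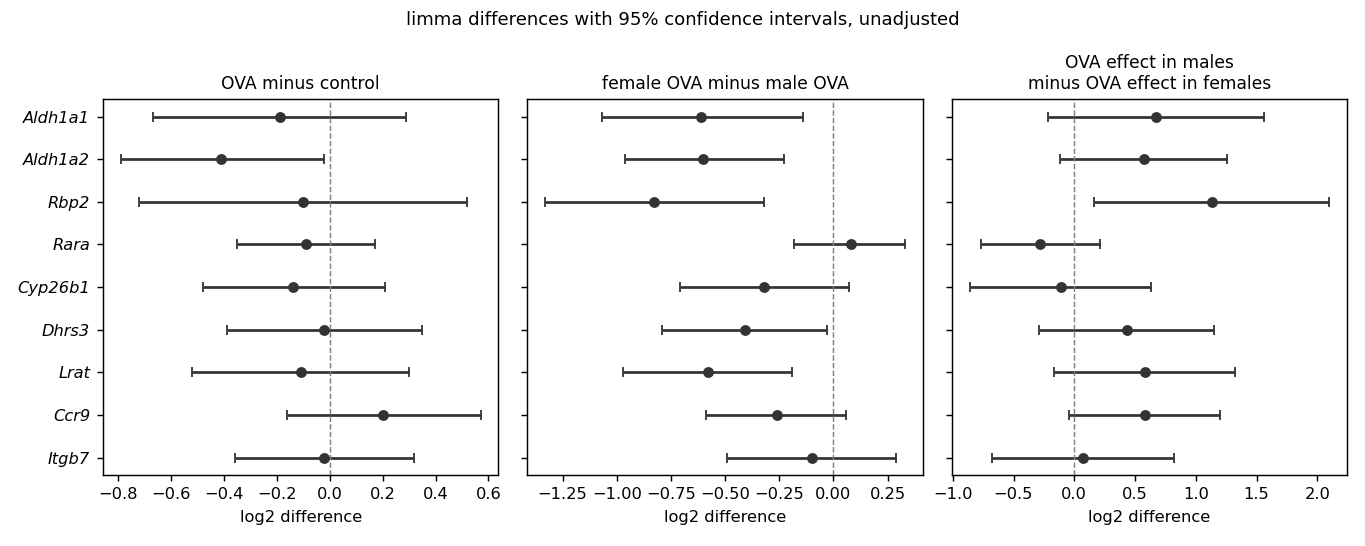
Difference on the log2(intensity + 4.88) scale for the representative probe set of each gene, with unadjusted 95% confidence intervals, for OVA minus control, female OVA minus male OVA, and the OVA effect in males minus that in females. Differences between female and male OVA mice are negative for 8 of 9 genes, and no value in any panel passes after adjustment over all probe sets.

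In the additive fit over all 8 arrays, controls included, female minus male was negative for 8 of the 9 genes, where 54.7% of tested probe sets were negative, with a median of -0.35. None of the members passed (smallest limma adjusted p = 0.901), while 12 of 22518 probe sets did (0.0533%), and 3 of the 9 genes had an unadjusted p under 0.05, against 5.41%. The OVA effect in males minus that in females came from the fit of 4 group means. It was positive for 7 of the 9 genes, against 43.6% of tested probe sets. It was 1.13 ± 0.41 (SE) for Rbp2 (limma adjusted p = 0.56) and 0.67 ± 0.38 (SE) for Aldh1a1 (0.697), and 0 of 22518 probe sets passed (0%), with 1846 (8.2%) at an unadjusted p under 0.05. Both female OVA arrays lay below the female control for 7 of the 9 genes, all but Rara and Itgb7, against 31.2% of tested probe sets. All 4 male OVA arrays lay above the male control for Rbp2 and Ccr9, against 23.9%, and the 2 arrangements met in these same 2 genes, against 4.98% (the opposite pair in 8.22%). For Ccr9 the 2 met on its brightest probe set only. The fit of 4 group means assumes that each lone control varies like the OVA arrays.

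Single mice stood out as well. Male OVA 5 was the highest array for 6 of the 9 genes (Aldh1a1, Aldh1a2, Rbp2, Dhrs3, Lrat and Ccr9), which was so for 14% of tested probe sets. Female OVA 12 was the lowest for 5 (Aldh1a1, Aldh1a2, Rbp2, Cyp26b1 and Dhrs3), against 11.7%. Rara and Itgb7 had their extremes on other arrays.

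**Figure D3:**
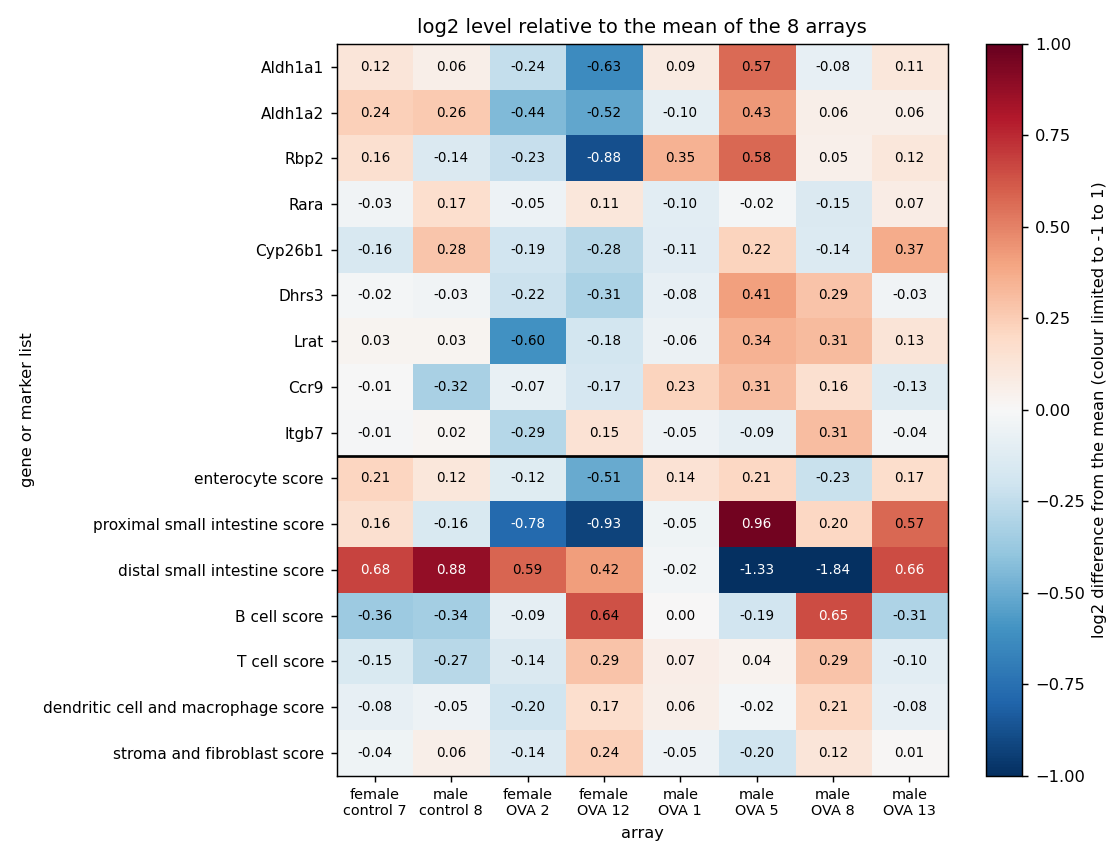
Log2 level of each gene's representative probe set, and of 7 marker list scores (mean log2 level of the list's genes past the filter), on each array relative to the mean of the 8 arrays. Aldh1a1, Aldh1a2, Rbp2 and Dhrs3 are lowest on female OVA 12 and highest on male OVA 5. These arrays have the lowest and highest score of proximal small intestine markers (-0.93 and 0.96). Rara, Cyp26b1, Lrat, Ccr9 and Itgb7 have their lowest or highest level on another array. The relation of the genes to this score was not tested.

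Marker scores of cell types and of gut position also differed between arrays. The enterocyte score, over 15 of 16 listed genes, was 10.88 to 10.98 in controls, 10.26 to 10.64 in female OVA and 10.54 to 10.97 in male OVA mice. The score of 8 proximal small intestine genes was 8.02 to 8.34 in controls, 7.25 to 7.40 in female OVA and 8.13 to 9.14 in male OVA mice, so that the OVA groups did not overlap on it. The score of 7 distal genes was lowest in male OVA 8 (6.82) and male OVA 5 (7.33) and between 8.64 and 9.54 elsewhere. The B cell score peaked on male OVA 8 (8.46) and female OVA 12 (8.45), and was at most 7.81 in the other mice. The part of these cell types and gut positions in the members' values was not tested.

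Each gene was set against 4 marker scores over the 8 arrays, 36 relations in all, with exact permutation of pairings. None passed after adjustment by Pearson's r (smallest exact permutation adjusted p = 0.0696), and 1 did by Spearman's rho. That was Aldh1a1 with the enterocyte score, with r = 0.88 (p = 0.00198 by exact permutation, adjusted to 0.0696) and a Spearman rho of 0.95 (p = 0.00114 by exact permutation, adjusted to 0.0411). Without female OVA 12 and male OVA 8, the arrays farthest from the median score, r was 0.76, and over the 6 OVA arrays 0.90. Rbp2 with the same score had r = 0.84 (p = 0.00967 by exact permutation, adjusted to 0.116), a Spearman rho of 0.81 (p = 0.0218 by exact permutation, adjusted to 0.392), and r = 0.71 without those 2 arrays.

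Aldh1a2, placed in dendritic cells by textbook knowledge, had r = 0.76 with the enterocyte score (p = 0.0278 by exact permutation, adjusted to 0.25), with a Spearman rho of 0.67 (p = 0.0762 by exact permutation, adjusted to 0.698), and r = 0.84 without those arrays. With the dendritic cell and macrophage score it had r = -0.12 (p = 0.776 by exact permutation, adjusted to 0.846), with a Spearman rho of -0.13 (p = 0.757 by exact permutation, adjusted to 0.908), and r = 0.50 without those arrays. That score is a mixed measure, over 12 of 14 listed genes. Of these, 8 were lower and 4 higher in female than in male OVA mice. Dendritic cells alone were not tested. Itgb7 had r = 0.89 with the dendritic cell and macrophage score (p = 0.00387 by exact permutation, adjusted to 0.0696), with a Spearman rho of 0.62 (p = 0.115 by exact permutation, adjusted to 0.698), and r = 0.65 without those arrays. With the B cell score Itgb7 had r = 0.68 (p = 0.0544 by exact permutation, adjusted to 0.391), with a Spearman rho of 0.26 (p = 0.536 by exact permutation, adjusted to 0.823). Its r turned to -0.58 without those arrays, so that relation rests on them.

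The genes most like each member were taken by Pearson's r over the 8 arrays among 11987 other genes, as a description, since the arrays share tissue makeup. For Aldh1a1 they were Pank3, Sec16b and Txnrd1 (r of 0.997 to 0.988). For Rbp2 they were Creb3l3, Mttp and Sec23a (all 0.982). Mttp is the lipid transfer protein of chylomicron assembly, and Sec23a a coat protein of vesicles leaving the endoplasmic reticulum. For Aldh1a2 they were Dmbt1, Sec23b and Pigr (0.984 to 0.976), of which Pigr carries IgA across the epithelium. Lrat was nearest to Oma1, Arsa and Jchain (0.986 to 0.977), Dhrs3 to Fzd7, Kat6b and Lamp1 (0.97 to 0.967) and Cyp26b1 to Tek, Mettl7b and Plpp5 (0.976 to 0.971), Tek being a receptor of endothelial cells. Rara was nearest to Col5a1, Pard3b and Galnt12 (0.965 to 0.945), Ccr9 to Tob2, Rexo4 and Tfb1m (0.979 to 0.963) and Itgb7 to Pnmal2, Bgn and Slc9a9 (0.988 to 0.978). Among the members, Rbp2 and Aldh1a1 were most alike (0.942). Aldh1a1 ranked 64th in the list of Rbp2, and Rbp2 138th in that of Aldh1a1.

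The rest of the pathway was read from 6 lists of other genes. In none of them did a gene pass in any of the 4 comparisons. Among 22 retinol and retinal dehydrogenases and reductases, 17 passed the filter, and 10 of these had a negative OVA difference (median -0.01). The 3 of smallest p were Rdh12 at 0.56 ± 0.19 (SE) (limma adjusted p = 0.409), Adh7 at 0.22 (0.53) and Rdh13 at -0.20 (0.531). Rdh12, a retinal reductase, read 21.6 and 18.9 in the controls, 31.9 and 44.1 in female OVA and 30.1, 21.2, 37.4 and 25.1 in male OVA mice. Both controls were thus at the low end, though male OVA 5 lay between them.

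Within this list, female OVA mice were below male OVA mice in 14 of 17 genes, with a median of -0.38, where 48.8% of tested probe sets were negative. The same difference had both signs in the other pathway lists. It was negative for 10 of 12 genes of uptake, binding and storage (median -0.23), for 7 of 11 target genes (median -0.03) and for 2 of 2 clearance genes. It was positive for 11 of 15 homing genes (median 0.24) and for 9 of 14 receptors and coregulators (median 0.01). Marker lists outside the retinoid pathway differed as well. The difference was negative for 13 of 15 enterocyte genes (median -0.20) and 8 of 8 proximal small intestine genes (median -1.15). It was positive for 7 of 7 distal genes (median 0.65) and 10 of 11 B cell genes (median 0.18). Among the dehydrogenases and reductases the gene of smallest p, Adh1, an alcohol dehydrogenase that oxidises retinol, was singled out after its values were seen. Adh1 read 4316 and 4249 in the controls, 2239 and 2292 in female OVA 2 and 12, and 4818, 6546, 4883 and 4666 in male OVA 1, 5, 8 and 13. The female OVA arrays were at about the same low level, and all male OVA arrays lay above both controls. The female minus male difference was -1.19 ± 0.15 (SE) (limma adjusted p = 0.133). Adh4, another such enzyme, was at -1.66 ± 0.27 (SE) (limma adjusted p = 0.18), with 95.5 and 70.4 in female OVA and 214 to 411 in male OVA mice. Retsat, the retinol saturase, was at -1.42 (0.334), Aldh1a3, another enzyme of retinoic acid synthesis, at -0.58 (0.337) and Dhrs4, a retinal reductase, at -0.73 (0.376). Aldh1a7, a close relative of Aldh1a1, read 182 in female OVA 12 and 742 in male OVA 5, the same extreme arrays as Aldh1a1. Probes of such near relatives may share signal.

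**Figure D4:**
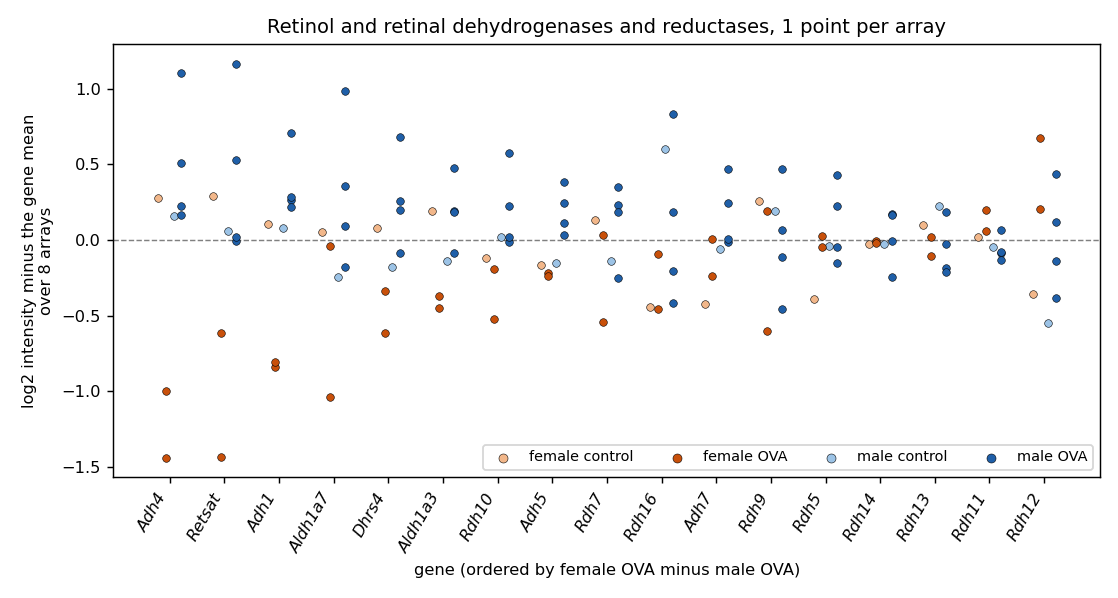
Log2 intensity of 17 retinol and retinal dehydrogenases and reductases on each array, relative to the gene's mean over 8 arrays and ordered by female OVA minus male OVA. In Adh4, Retsat and Adh1 on the left both female OVA points lie below every male OVA point, and Rdh12 on the right has both controls at the low end.

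Of 16 genes of retinoid uptake, binding and storage, 12 passed the filter, 8 with a negative OVA difference (median -0.16). Ttr, a plasma carrier of retinol with its binding protein, had the smallest p. It read 185 and 157 in the controls, 232 and 238 in female OVA and 248, 302, 249 and 204 in male OVA mice. All 6 OVA arrays lay above both controls, a difference of 0.51 ± 0.15 (SE) that did not pass (limma adjusted p = 0.389). Fabp5, which can carry retinoic acid, was at 0.59 ± 0.24 (SE) (0.425) and Dgat1, which can esterify retinol, at -0.34 ± 0.18 (SE) (0.499). Between female and male OVA mice the smallest p was that of the fatty acid and lipid receptor Cd36, at -1.06 ± 0.25 (SE), which did not pass (limma adjusted p = 0.323) and was also singled out after its values were seen.

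Of 17 receptors and coregulators 14 passed the filter, 8 positive and 6 negative (median 0.05), so they showed no common side. Rxrb, a partner of the retinoic acid receptors, was at 0.24 ± 0.11 (SE) (limma adjusted p = 0.447), Rarb at 0.27 (0.526) and Rxra at -0.28 (0.553). Of 4 clearance genes Cyp2s1 and Ugt2b34 passed the filter, at -0.58 ± 0.23 (SE) (limma adjusted p = 0.415) and -0.11 (0.848), and Cyp26a1 was below it.

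Of 20 target genes of retinoic acid 11 passed the filter, 7 negative and 4 positive (median -0.11). Zfp36l2, an RNA-binding protein, read 984 and 1020 in the controls, 670 and 798 in female OVA and 685, 796, 887 and 792 in male OVA mice. All 6 OVA arrays lay below both controls, at -0.40 ± 0.12 (SE) (limma adjusted p = 0.396). Cdx1, a transcription factor of gut epithelium, was at -0.47 ± 0.18 (SE) (0.418) and Tgm2, a transglutaminase, at -0.22 (0.458).

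Of 17 genes of gut homing and mucosal retention 15 passed the filter, 11 positive and 4 negative (median 0.35), the highest median of the 6 lists. On the B cell markers every OVA array scored above female control 7 (7.45) and male control 8 (7.47), though male OVA 13, at 7.5, only narrowly. Any part of B cell content in the values of these homing genes was not tested. The chemokine receptor Cxcr4 was at 0.81 ± 0.32 (SE) (limma adjusted p = 0.417) and Gpr183, an oxysterol receptor that positions B cells, at 0.67 ± 0.26 (SE) (0.419). The mucosal chemokine Ccl28 was at -0.54 ± 0.23 (SE) (0.438). Ccl25, the ligand of Ccr9, was at -0.12 ± 0.15 (SE) (0.76), and Itga4, the partner of Itgb7, at 0.25 ± 0.24 (SE) (0.69). Madcam1, the vascular ligand of that integrin, read 204 and 137 in the controls, 250 and 406 in female OVA and 196, 169, 270 and 146 in male OVA mice. It was highest in female OVA 12 and overlapped between treatments.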

How the data were processed

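Biotin-labelled Peyer's patch RNA of 8 mice was hybridised to 1-colour Affymetrix arrays. The authors deposited linear intensities per probe set (1.86 to 14749), already normalized. The submitters' processing notes name MAS5. The version and settings used were not given in the sources used here. Values tied between arrays in 51.5% of probe sets, and trimmed means ran from 65.1 to 68.2. The number of arrays limits the precision.

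Values were taken to log2(value + 4.88), the 25th percentile of all values, without further scaling. After leaving out 64 control probe sets, 22518 above the median level were tested with limma 3.58.1 in R 4.3.3, two-sided. Correlations used Python 3.11.15 and NumPy 2.4.6. Probe set annotation from GEO gave 1 symbol for 34958 probe sets, and all 9 genes matched RefSeq.

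The members, lists and tests were chosen with earlier results of these data known. Named genes are the 9 members, the 3 of smallest p in each pathway list, and the 3 most alike to each member. Adh1, Adh4, Retsat, Aldh1a3, Aldh1a7, Dhrs4, Cd36, Ccl25, Itga4 and Madcam1 were named after their values were seen. Alternatives were pseudocounts, quantile normalization, median centring, filters, variance models, array weights, covariates, gene means, exact permutation and leaving out arrays.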

Additional observations from a re-analysis of the deposited data

Results flagged for a closer look

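For 3 of the 12 probe sets both female OVA arrays lay below the female control while all 4 male OVA arrays lay above the male control, an arrangement found in 4.98% of tested probe sets (the opposite one in 8.22%). They were the Rbp2 probe set, the second Lrat probe set and the brightest Ccr9 probe set. The OVA effect in males minus that in females was 1.13 ± 0.41 (SE) for Rbp2 (limma adjusted p = 0.56), 0.61 ± 0.18 (SE) for Lrat (limma adjusted p = 0.521) and 0.58 ± 0.27 (SE) for Ccr9 (limma adjusted p = 0.629), so none passed the test of the difference. On the other Ccr9 probe sets past the filter the same difference was -0.10 and 0.04. Among the 4 male OVA arrays, Itgb7 on male OVA 8, at 117, stood far from the others, which lay between 87.9 and 91.2. Of 12 such groups checked this was the only one, and chance gives about 1 in 20 groups.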

How the results depend on the processing

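No single member passed under any of the alternatives run (618 values, 590 with the direction unchanged and 28 reversed), with a lowest limma adjusted p of 0.152. Exact permutation was among them, and its smallest p of 0.036 left little room to pass. The count of members past the threshold was 0 throughout in every comparison. The cause of the reversals was not tested. For OVA minus control, Dhrs3 was at 0.033 without the sex covariate and by exact permutation, and Rbp2 at 0.14 without female OVA 12 and male OVA 8. Leaving out 1 array at a time gave ranges of -0.56 to 0.11 for Aldh1a1, -0.72 to -0.15 for Aldh1a2, -0.19 to -0.07 for Cyp26b1, -0.71 to 0.41 for Rbp2, -0.22 to 0.060 for Rara, -0.25 to 0.18 for Dhrs3, -0.43 to 0.15 for Lrat, -0.11 to 0.47 for Ccr9 and -0.10 to 0.068 for Itgb7. For female minus male, Rara was at -8.7e-05 with a pseudocount of the median of all values, at -0.10 without those 2 arrays and between -0.080 and 0.076 without 1 array, and Itgb7 between -0.21 and 0.058. For the difference in OVA effect Itgb7 ran from -0.14 to 0.29. For female OVA minus male OVA, Rara was at -0.039 without those 2 arrays and between -0.0055 and 0.16 without 1 array, and Itgb7 between -0.32 and 0.11. Over all probe sets, the filter at the 75th percentile left 4 calls between the sexes instead of 12, and 3 instead of 13 between female and male OVA mice. The latter count was 6 without female OVA 12 and male OVA 8 and 8 to 17 without 1 array, 8 of them without female OVA 2 and 8 without female OVA 12. Where 1 array of a group remained, it was assumed to vary like the others. The difference in OVA effect was not run without a control, since a sex then has none. No paired analysis was run, since the labels pair no control with an OVA mouse. The dim probe sets of Rara, Aldh1a2 and Cyp26b1 lie near the filter, where intensity over background limits what could be seen.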
